A study of Homo sapiens with 18 samples.

Results

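A set of 9 genes, grouped as NF-kB inhibitors and inflammation brakes, was examined for GR binding regions (GBR) in U2OS-GRα cells. The genes were NFKBIA, NFKBIB, NFKBIE, NFKBIZ, BCL3, TNFAIP3, TNIP1, ZFP36 and IRAK3. A GBR was assigned to a gene when the summit of a called peak was within 100 kb of the transcription start site (TSS) of its canonical transcript in GENCODE release 44. Peaks of different lists that overlapped by at least 1 bp were counted as 1 site. By this rule 43 peaks formed 15 sites, of 9736 sites in all, and they were found at 7 of the 9 genes. BCL3 and IRAK3 had none.

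U2OS-GRα cells are human osteosarcoma U2OS cells, an established line, stably transfected with GRα, so the receptor measured here comes from an introduced gene. Cells were transfected for 48 h with 1 of 6 siRNA combinations and then all received 100 nM dexamethasone (dex), a synthetic glucocorticoid, for 1 h. The combinations were non-specific siRNA alone (siNS/siNS), depletion of the coregulator Hic-5 (siHic5/siNS), of the chromatin remodelers CHD9 (siCHD9/siNS) or BRM (siBRM/siNS), and of Hic-5 together with CHD9 (siCHD9/siHic5) or BRM (siBRM/siHic5). Each combination had 2 ChIP-seq libraries with GR antibodies, 12 in all, and 1 input library. The deposited peaks were called on the pooled replicates, so each combination contributes 1 list and 1 value per site. There is no spread between replicates, no difference was tested, the depletions themselves cannot be checked in peak lists, and intervals for shares cover counting error only.

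NF-kB is a family of dimeric transcription factors that drives inflammatory genes. In resting cells the IκB proteins hold it in the cytoplasm, and signals from cytokine and Toll-like receptors, passed on through ubiquitin chains and the IKK kinases, free it by destroying IκB. Several of the genes that NF-kB switches on feed back to restrain it, and glucocorticoids acting through GR are known to oppose it, in part by raising the expression of some of the same inhibitors.

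Stretches of 8 sites are shown for the motif matches near their summits, and 1 of these sites appears under 2 motifs. The first sequences are sites with a match to the GR element (GRE), the inverted repeat bound by the GR dimer. A match has at most 1 mismatch at the 10 defined positions of its 15 bases. Capitals mark the match, and all stretches of sites are plus strand, GRCh38. At NFKBIA only a short stretch is shown, because it lies in an intron of the canonical transcript but in the UTR of another transcript of the gene.
NFKBIA, 0.698 kb downstream of the TSS (chr14:35404028-35404056): ccagctcGGAACGCCCTGTACTtcccctc
ZFP36, 2.88 kb downstream (chr19:39409629-39409828): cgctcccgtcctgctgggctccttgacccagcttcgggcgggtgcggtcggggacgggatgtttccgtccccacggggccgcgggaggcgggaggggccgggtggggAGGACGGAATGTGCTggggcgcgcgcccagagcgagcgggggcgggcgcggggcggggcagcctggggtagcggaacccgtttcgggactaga
NFKBIE, 6.59 kb upstream (chr6:44272038-44272237): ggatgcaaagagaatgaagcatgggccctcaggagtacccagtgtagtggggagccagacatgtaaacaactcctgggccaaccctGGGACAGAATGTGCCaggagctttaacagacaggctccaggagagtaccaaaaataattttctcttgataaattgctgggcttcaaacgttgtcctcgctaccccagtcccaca
TNFAIP3, 62.4 kb upstream (chr6:137804797-137804996): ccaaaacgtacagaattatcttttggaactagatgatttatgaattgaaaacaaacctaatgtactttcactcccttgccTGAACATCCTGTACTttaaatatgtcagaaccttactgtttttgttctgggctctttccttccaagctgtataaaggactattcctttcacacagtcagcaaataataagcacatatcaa

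The next sequences are from sites with a match to the NF-kB consensus within 100 bp of the summit. Capitals mark the NF-kB match and, at the NFKBIA site 13.8 kb downstream, an ETS match (CAGGAAGT) 47 bp from the summit.
NFKBIA, 0.698 kb downstream (chr14:35403956-35403979): gcgcccaGGGACTTTCCgcccccc
NFKBIA, 13.8 kb downstream (chr14:35390896-35391095): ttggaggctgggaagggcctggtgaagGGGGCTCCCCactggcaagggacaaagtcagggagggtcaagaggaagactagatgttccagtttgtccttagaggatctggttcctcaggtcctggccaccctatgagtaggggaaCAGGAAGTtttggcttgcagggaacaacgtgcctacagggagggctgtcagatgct
TNFAIP3, 6.24 kb downstream (chr6:137873402-137873601): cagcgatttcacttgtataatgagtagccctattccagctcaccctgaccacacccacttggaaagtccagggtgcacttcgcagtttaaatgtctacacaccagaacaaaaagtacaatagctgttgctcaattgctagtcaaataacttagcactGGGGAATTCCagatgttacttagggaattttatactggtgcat
ZFP36, 5.72 kb downstream (chr19:39412466-39412665): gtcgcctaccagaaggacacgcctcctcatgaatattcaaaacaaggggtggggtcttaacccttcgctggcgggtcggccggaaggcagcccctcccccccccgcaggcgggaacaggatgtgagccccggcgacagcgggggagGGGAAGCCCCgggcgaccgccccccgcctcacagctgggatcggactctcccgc

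The last stretch is from the strongest siHic5/siNS site near TNFAIP3, which had neither a GRE nor an NF-kB match but held an ETS match on the minus strand (ACTTCCTG as printed) and an AP-1 match, both in capitals.
TNFAIP3, 55.6 kb upstream (chr6:137811517-137811716): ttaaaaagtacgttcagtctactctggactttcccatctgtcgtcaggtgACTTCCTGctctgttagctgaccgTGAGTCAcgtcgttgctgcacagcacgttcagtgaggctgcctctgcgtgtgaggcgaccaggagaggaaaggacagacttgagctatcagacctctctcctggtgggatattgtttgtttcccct

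The 15 sites were not spread evenly over the genes. ZFP36 had 4 sites, NFKBIA and TNFAIP3 had 3 each, NFKBIE had 2, and NFKBIB, NFKBIZ and TNIP1 had 1 each. Of all 20046 protein-coding genes, 44.2% had at least 1 site in some list, 11.6% had at least 3 and 6.15% had at least 4. At 10 of the 15 sites the member was the gene with the nearest TSS. The sites of NFKBIB and NFKBIE and 2 of the 4 at ZFP36 were nearer to other genes, and assignment by distance does not show which gene a site acts on.

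In cells with Hic-5 (siNS/siNS), 7 sites at 3 genes were called, namely NFKBIA, TNFAIP3 and ZFP36. In Hic-5 depleted cells all 15 sites at all 7 genes were called. Hic-5 and CHD9 double depletion left 6 sites at 4 genes, and Hic-5 and BRM double depletion left 8 sites at 3 genes. With Hic-5 present, 4 sites were called after CHD9 depletion and 3 after BRM depletion, at 3 genes in either list. For comparison, the share of protein-coding genes with a site within 100 kb was 17% in the siNS/siNS list, 43.6% in siHic5/siNS, 16.4% in siCHD9/siHic5, 10.5% in siCHD9/siNS, 22.2% in siBRM/siHic5 and 9.92% in siBRM/siNS. NFKBIA, TNFAIP3 and ZFP36 were therefore represented in every list, TNIP1 in siHic5/siNS and siCHD9/siHic5, and NFKBIB, NFKBIE and NFKBIZ in siHic5/siNS alone.

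**Figure D1:**
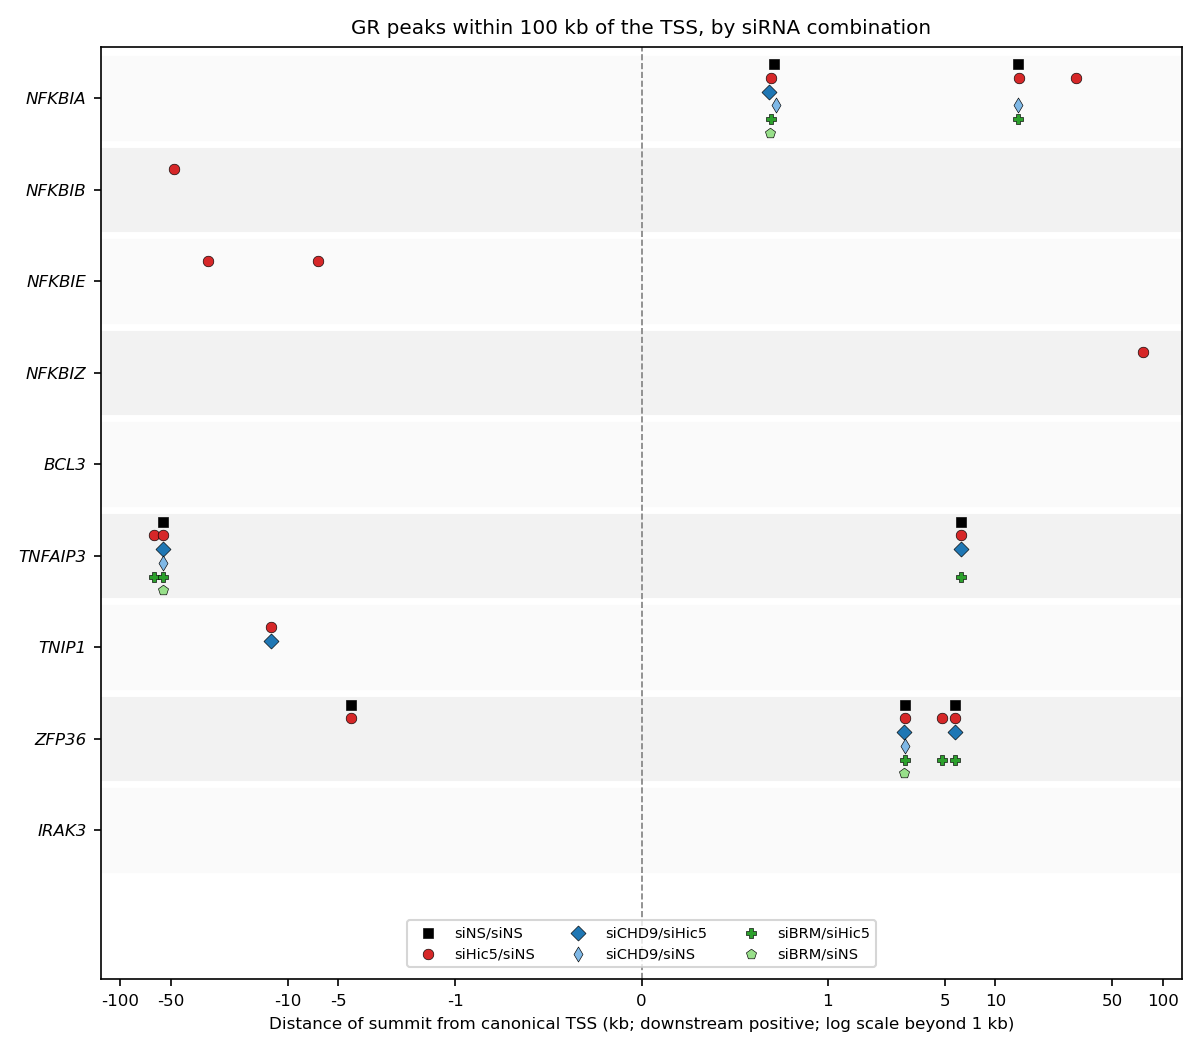
Summits of the 43 peaks at the 9 genes, by distance from the canonical TSS in kb (horizontal axis, linear within 1 kb and logarithmic beyond) and by siRNA combination (rows of symbols within each gene). NFKBIA, TNFAIP3 and ZFP36 have symbols of all 6 lists, and BCL3 and IRAK3 have none.

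A site present in siHic5/siNS without a siNS/siNS peak is called blocked, and one with a siNS/siNS peak shared. The paper's first comparison of called peaks used this rule. Its later blocked set was defined by cut-offs for statistical difference and size of change in binding, and included some peaks called in both lists. Those cut-offs were not applied here. Of the 15 sites, 8 were blocked (53.3%, 95% Wilson interval 30.1% to 75.2%) and 7 were shared. Over the whole siHic5/siNS list of 9533 peaks, 74% were blocked and 26% were shared, so the share of blocked sites was lower at these genes and the whole-list value was inside the interval. Some shared sites had siNS/siNS −log10 q-values near the lowest of that list, 8.88. They were 9.28 at TNFAIP3 (55.6 kb upstream), and 9.99 and 9.02 at ZFP36 (4.22 kb upstream, 5.72 kb downstream). With all lists filtered at 14.2, 8 of 12 sites were blocked, and at 20, 7 of 11. Whole-list shares under these filters were not computed. Calls in the siCHD9/siHic5 list were found at 6 of the 15 sites (40.0%, interval 19.8% to 64.3%), against 24.6% of all siHic5/siNS peaks. Calls in the siBRM/siHic5 list were found at 8 of the 15 (53.3%, the same interval as for the blocked sites), against 34.6% of all. Both whole-list shares were inside the intervals. The intervals treat the 15 sites as independent, though ZFP36 had 4 of them and NFKBIA and TNFAIP3 had 3 each, so they carry no test.

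Blocked and shared sites were also counted after double depletion. Of the 8 blocked sites, 1 was called in siCHD9/siHic5 and 2 in siBRM/siHic5, and no site was called in both. These calls were weak: TNIP1 ranked 1968 of 2451 in siCHD9/siHic5. In siBRM/siHic5, ZFP36 (4.83 kb downstream) ranked 3267 and TNFAIP3 (62.4 kb upstream) 3124 of 3383, near the bottom of the list. Of the 7 shared sites, 5 were called in siCHD9/siHic5 and 6 in siBRM/siHic5, and 5 in both. In the whole list, 9.45% of blocked peaks were called in siCHD9/siHic5, 16.7% in siBRM/siHic5 and 5.65% in both, and 67.7%, 85.7% and 64.7% of shared peaks. The counts at these genes were close to those shares and are no result particular to them. Over blocked and shared together, 21% of siHic5/siNS peaks were called in both double depletions. In all, 5 sites were called in siHic5/siNS and no other list, against 58.7% of all siHic5/siNS peaks, and 3 were called in all 6 lists, against 9.25%. The siBRM/siHic5 list had a stricter floor than the others: its lowest −log10 q-value was 14.2, against 7.26 to 8.91. With every list filtered at that floor, 12 sites remained, the same 8 were called in siBRM/siHic5 and 4 of the 12 were not, because 3 weak sites called only in siHic5/siNS (at NFKBIA, NFKBIB and NFKBIE) dropped out.

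The same remodelers were examined with Hic-5 present. Of the 7 siNS/siNS sites, 4 were called in siCHD9/siNS and 3 in siBRM/siNS. In the whole siNS/siNS list of 2582 peaks the corresponding shares were 48.6% and 47.8%. All siHic5/siNS peaks together were found in siCHD9/siNS at 14.5% and in siBRM/siNS at 13.1%. The 3 sites that kept a call in both were the ones called in all 6 lists, at NFKBIA, TNFAIP3 and ZFP36.

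NFKBIA encodes IκBα, the inhibitor that is destroyed and made again in each round of NF-kB activation. The gene (ENSG00000100906.12) lies on the minus strand at chr14:35401513-35404749. Its nearest site, 0.698 kb downstream of the TSS, had a siHic5/siNS peak at chr14:35403352-35405148 that covered the TSS. The fold enrichment of this peak was 41.8 in siNS/siNS, 55.7 in siHic5/siNS, 38.3 in siCHD9/siHic5, 36.4 in siCHD9/siNS, 55.9 in siBRM/siHic5 and 30.0 in siBRM/siNS. It was among the strongest peaks of every list, ranking between 2 and 7 by p-value, and its fold enrichment was highest in siHic5/siNS and siBRM/siHic5. Fold enrichment is the signal value of the lists as MACS2 defines it, while the study's dataset legend names the same column average enrichment in CPM. The lists are from separate pools, so values were compared between lists only as a description.

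The site 13.8 kb downstream of NFKBIA, between genes at chr14:35390782-35391292, had a fold enrichment of 12.2 in siNS/siNS, 9.68 in siHic5/siNS, 6.57 in siCHD9/siNS and 7.60 in siBRM/siHic5. It was higher in siNS/siNS than in siHic5/siNS, the reverse of the usual order. The ratio of siHic5/siNS to siNS/siNS was 0.791 there, and 50 of the 2439 sites called once in both lists (2.05%) had a lower one. It had no siCHD9/siHic5 or siBRM/siNS call. The third site, 30.2 kb downstream at chr14:35374341-35374870, was called only in siHic5/siNS, with a fold enrichment of 5.53 and rank 8939 of 9533.

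ZFP36 encodes tristetraprolin, which binds AU-rich elements and speeds the decay of cytokine mRNAs. The gene (ENSG00000128016.7) lies on the plus strand at chr19:39406847-39409407, and its 4 sites were all within 10 kb of the TSS. The nearest and strongest, 2.88 kb downstream at chr19:39409308-39410268, has its summit just past the end of the gene. Its fold enrichment was 26.5 in siNS/siNS, 46.5 in siHic5/siNS, 24.9 in siCHD9/siHic5, 21.0 in siCHD9/siNS, 45.4 in siBRM/siHic5 and 20.5 in siBRM/siNS. As at NFKBIA, siHic5/siNS and siBRM/siHic5 were the highest lists, and the ranks were between 16 and 39.

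The remaining ZFP36 sites had lower fold enrichment and calls in 2 to 4 lists. The site 4.22 kb upstream, at chr19:39402263-39403043, was called in siNS/siNS (fold enrichment 6.04) and siHic5/siNS (9.76) and in no list with a remodeler depleted. The site 4.83 kb downstream, at chr19:39411278-39412018, was blocked, with a fold enrichment of 14.1 in siHic5/siNS and 6.00 in siBRM/siHic5. The site 5.72 kb downstream, at chr19:39412115-39412913, had 4.83 in siNS/siNS, 11.3 in siHic5/siNS, 7.03 in siCHD9/siHic5 and 6.03 in siBRM/siHic5. The last 2 sites lie 0.997 kb and 0.103 kb from the TSS of PLEKHG2, which is nearer to them than ZFP36. The site 4.83 kb downstream was the strongest blocked site of the set, at rank 1558 in siHic5/siNS.

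TNFAIP3 encodes the ubiquitin-editing enzyme that takes apart the signalling complexes upstream of IKK. The gene (ENSG00000118503.18) lies on the plus strand at chr6:137867259-137883312. Its nearest site, 6.24 kb downstream in an intron of the gene at chr6:137873277-137873958, had a fold enrichment of 7.17 in siNS/siNS, 15.5 in siHic5/siNS, 6.00 in siCHD9/siHic5 and 6.37 in siBRM/siHic5. Both double depletions were below siNS/siNS in fold enrichment at this site. By −log10 p-value siBRM/siHic5 was above siNS/siNS (28.5 against 24.8) and siCHD9/siHic5 was below it (21.1). The site had no call in the single remodeler depletions.

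The strongest TNFAIP3 site in siHic5/siNS was 55.6 kb upstream, between genes at chr6:137811242-137811873. Its fold enrichment was 4.36 in siNS/siNS, 16.0 in siHic5/siNS, 9.52 in siCHD9/siHic5, 6.85 in siCHD9/siNS, 17.3 in siBRM/siHic5 and 5.84 in siBRM/siNS. The siNS/siNS value was the lowest of the 6, and the peak ranked 2492 of 2582 in that list against 497 of 9533 in siHic5/siNS. The ratio of siHic5/siNS to siNS/siNS, 3.67, was above that of 98.6% of the 2439 sites. The third site, 62.4 kb upstream at chr6:137804611-137805120, was blocked, with a fold enrichment of 8.40 in siHic5/siNS and 5.27 in siBRM/siHic5.

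TNIP1 encodes a ubiquitin-binding partner of TNFAIP3. The gene (ENSG00000145901.16) lies on the minus strand at chr5:151029945-151081034, and its site was 12.6 kb upstream at chr5:151093374-151093961. The fold enrichment was 6.07 in siHic5/siNS and 5.39 in siCHD9/siHic5. It was the only blocked site of the set that was called after Hic-5 and CHD9 double depletion, and it had no siBRM/siHic5 call.

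NFKBIB and NFKBIE encode IκBβ and IκBε, which like IκBα hold NF-kB in the cytoplasm, and NFKBIZ encodes IκBζ, a nuclear member of the family that modifies NF-kB transcription. Their 4 sites were called in siHic5/siNS only. The NFKBIB site, 48.0 kb upstream at chr19:38851836-38852210, had a fold enrichment of 7.02 and was 2.02 kb from the TSS of HNRNPL, with 6 genes nearer than NFKBIB. The NFKBIE sites, 29.7 kb upstream at chr6:44295060-44295503 and 6.59 kb upstream at chr6:44271924-44272344, had 6.21 and 8.59 and lie in introns of TCTE1 and TMEM151B. The NFKBIZ site, 75.7 kb downstream, had 6.64 and no other protein-coding gene nearer. None of these sites was within 5 kb of its gene, and their ranks ran from 3637 to 8111 of 9533.

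BCL3, a nuclear IκB protein that joins NF-kB dimers on DNA, and IRAK3, a kinase-like protein that dampens interleukin and Toll-like receptor signalling, had no site. The nearest peak to BCL3 was 145 kb away and was called in siHic5/siNS only, at rank 9395. The nearest to IRAK3 was 297 kb away, in an intron of HMGA2, and was called in the siHic5/siNS, siCHD9/siHic5 and siBRM/siHic5 lists. No summit of any list lay between 100 kb and 145 kb of a member TSS: for the other genes the nearest summit outside was 160 kb away at TNFAIP3 and farther at the rest.

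**Figure D2:**
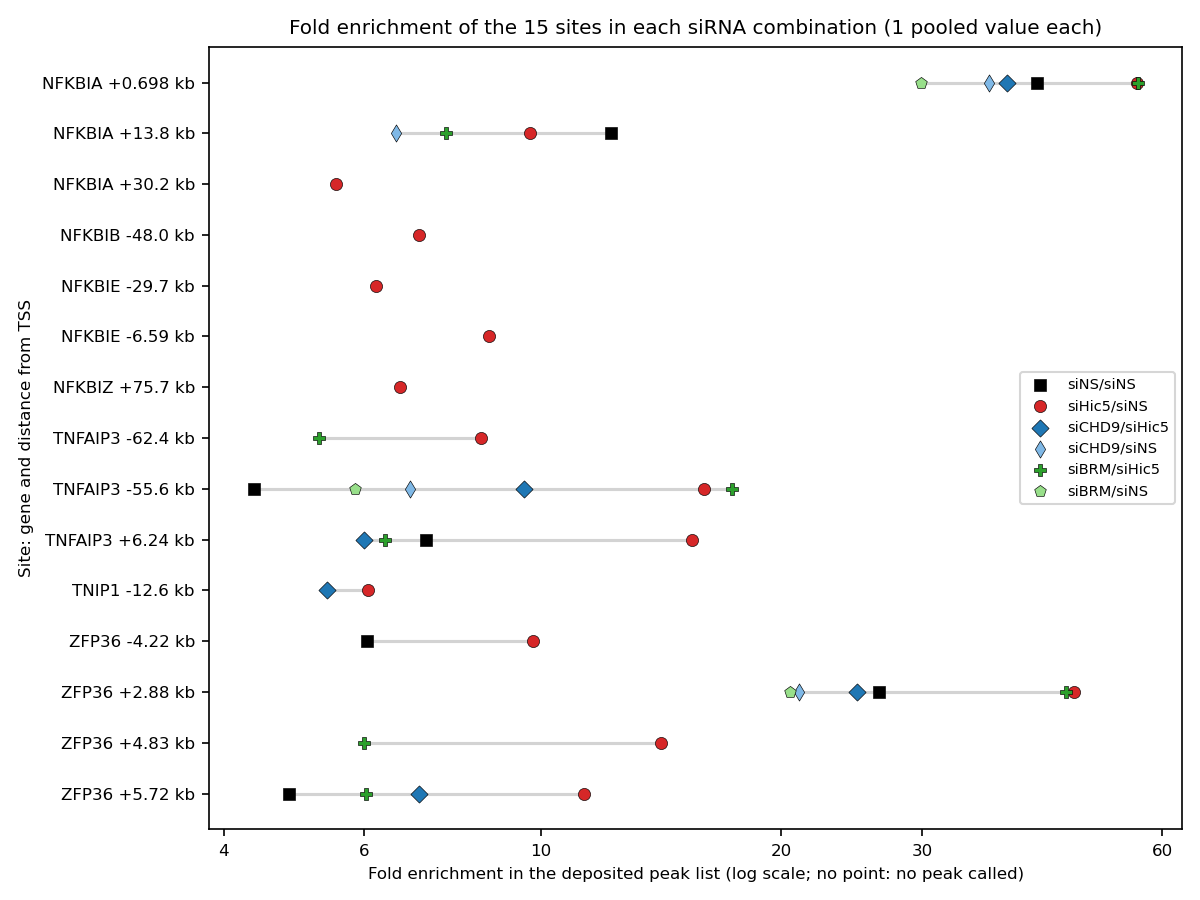
Fold enrichment (horizontal axis, log scale) of each of the 15 sites (rows) in every list that called it, 1 pooled value per symbol and no error bars because replicates were pooled. The first NFKBIA site reaches 55.9 and the ZFP36 site at 2.88 kb reaches 46.5, while 5 sites have a siHic5/siNS symbol alone.

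Sites close to a TSS were also counted. A siHic5/siNS summit within 10 kb of the TSS was found at 4 of the 9 genes, NFKBIA, NFKBIE, TNFAIP3 and ZFP36, against 8.05% of protein-coding genes. A siNS/siNS summit within 10 kb was found at 3 of the 9, against 2.41%. The 9 genes were chosen by function and with results of these data known, so these counts describe the set and carry no test.

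Strength was related to which lists called a site. By −log10 p-value the 15 sites had a median of 31.7 in the siHic5/siNS list, against 22.4 for all its peaks, and a median rank of 2991. The 7 shared sites ranked from 2 to 3584 and the 8 blocked sites from 1558 to 8939, so the groups overlapped between those ranks. In the whole list, 99.0% of the peaks ranked 1 to 100 were called in all 6 lists, and 91.0% of those ranked 6001 to 9533 were called in siHic5/siNS only. Blocked peaks made up 49.4% of ranks 1001 to 3000 and 86.3% of ranks 3001 to 6000. A weak site can therefore be missing from a list while carrying GR below its threshold, and the part of strength in the calls at these genes was not tested.

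**Figure D3:**
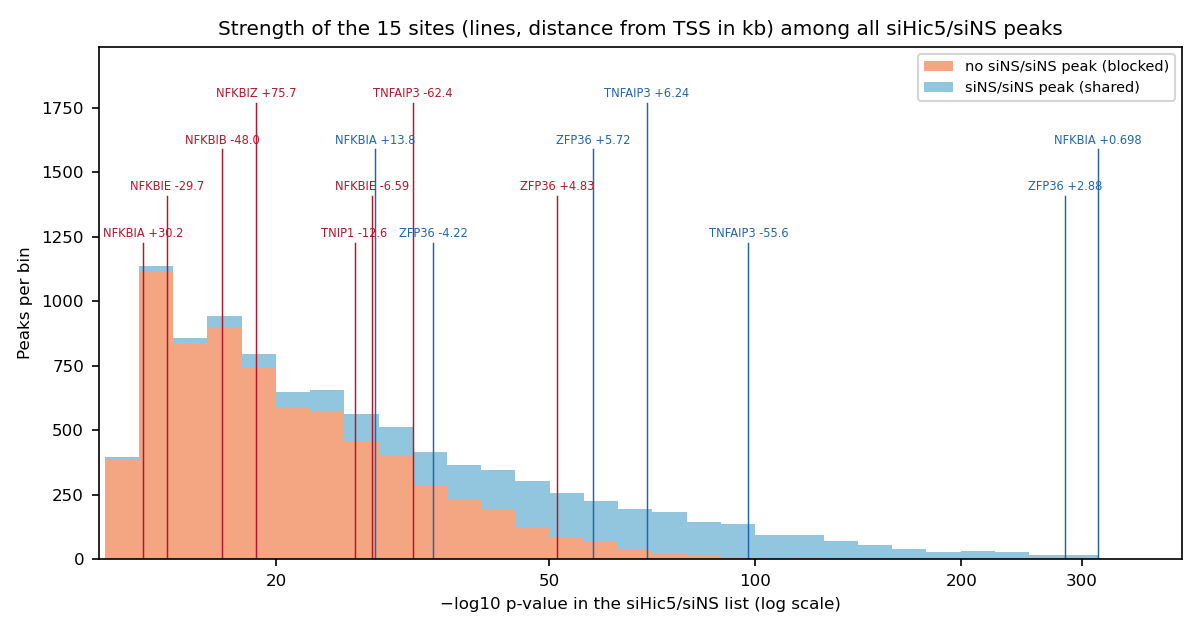
Histogram of −log10 p-value (horizontal axis, log scale) of all 9533 siHic5/siNS peaks, stacked by whether a siNS/siNS peak overlapped, with a line for each of the 15 sites. The shared sites (blue) include the 3 strongest of the set, and the blocked sites (red) run from rank 1558 to rank 8939.

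For the sites called in 2 lists, the change of fold enrichment was set beside that of all sites called once in both. From siNS/siNS to siHic5/siNS, 6 of the 7 shared sites were higher without Hic-5, with ratios from 1.33 to 3.67, and the NFKBIA site at 13.8 kb was lower. The median ratio over 2439 sites was 1.71, and 7.71% were below 1. From siHic5/siNS to siCHD9/siHic5, the 6 sites had ratios from 0.388 at TNFAIP3 (6.24 kb downstream) to 0.888 at TNIP1, and all were below 1, as were 92.7% of 2310 sites, whose median was 0.568.

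The ratios after BRM depletion without Hic-5, which share the siHic5/siNS list with those after CHD9 depletion, ran from 0.412 to 1.08 over 8 sites. The sites called in all 6 lists had siBRM/siHic5 to siHic5/siNS ratios of 1.00 at NFKBIA, 0.976 at ZFP36 and 1.08 at TNFAIP3. The TNFAIP3 site 6.24 kb downstream had a ratio of 0.412 and the ZFP36 site 4.83 kb downstream 0.424, lower than at all but 3.49% and 4.13% of the 3266 sites called in both lists. The median of those sites was 0.763, and 79.4% were below 1. Within TNFAIP3 and within ZFP36, sites of the same gene thus lay at both ends of this range.

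**Figure D4:**
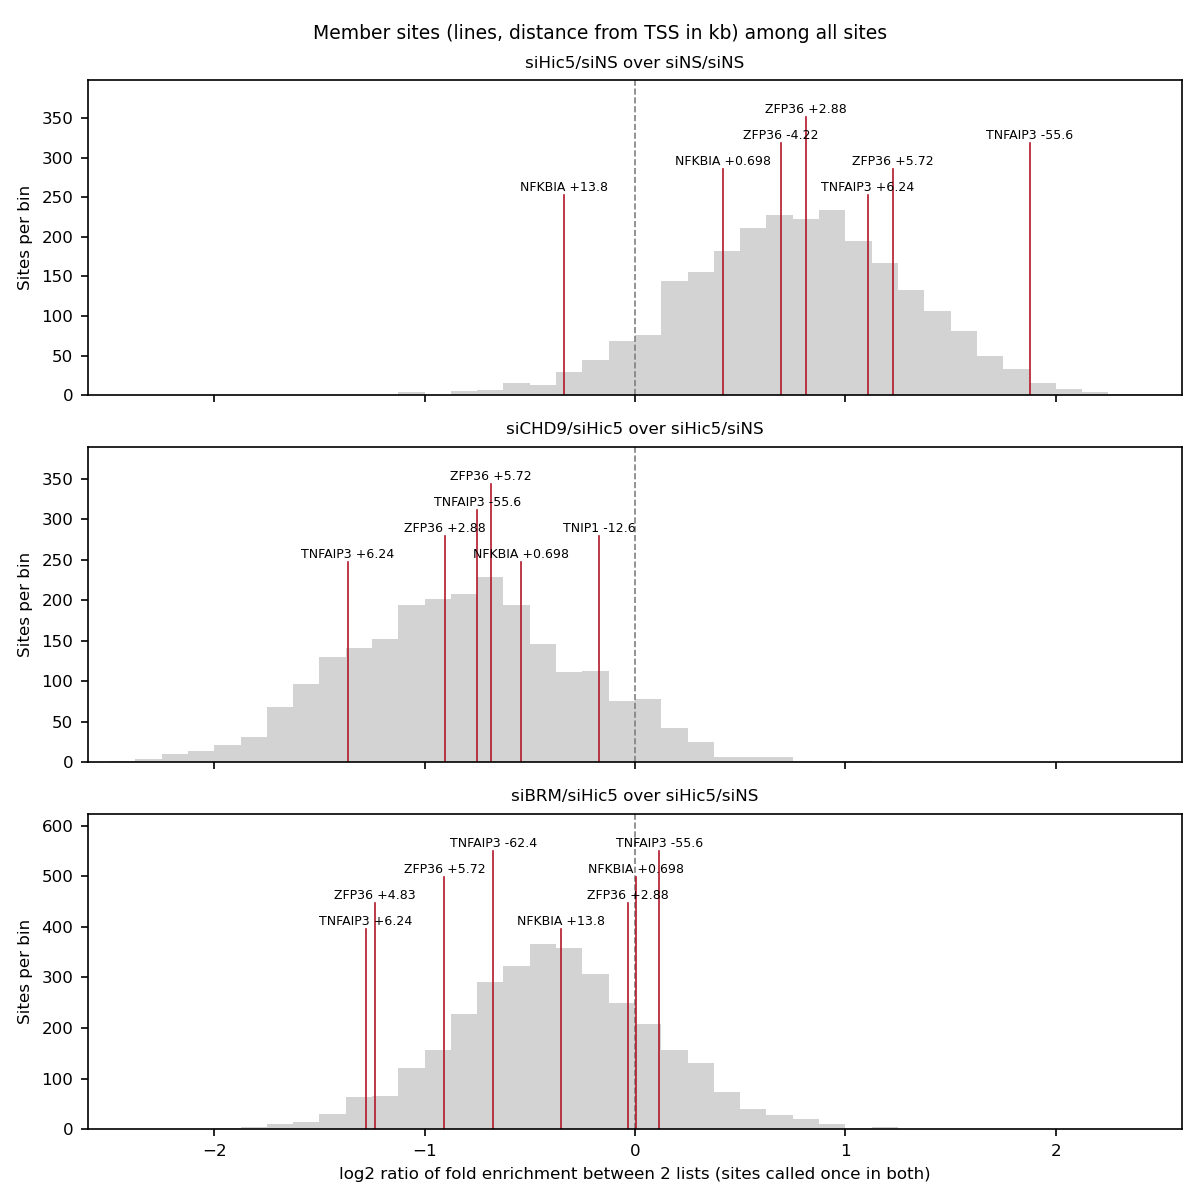
Histograms of the log2 ratio of fold enrichment between pairs of lists for all sites called once in both (grey), with a line for each of the 15 sites that could be compared. Above, the NFKBIA site at 13.8 kb lies left of 0 and the other 6 right of it. In the middle panel all 6 lines lie left of 0, and below, the 8 lines run from 0.412 to 1.08 as ratios.

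GRE matches were found in the 1-kb windows around the siHic5/siNS summit at 6 of the 15 sites, against 53.6% of all 9533 windows, and within 100 bp of the summit at 5, against 46.1%. The matches were 9 bp from the summit at NFKBIA (0.698 kb), 14 bp at ZFP36 (2.88 kb), 7 bp at NFKBIE (6.59 kb), 13 bp at TNFAIP3 (62.4 kb) and 39 bp at NFKBIE (29.7 kb). The sixth was 160 bp from the summit at the NFKBIA site 30.2 kb downstream. The NFKBIE match GGGACAGAATGTGCC was the only one with no mismatch. The matches at NFKBIA (GGAACGCCCTGTACT) and ZFP36 (AGGACGGAATGTGCT), the strongest sites of the set, had 1 mismatch. The TNFAIP3 sites at 55.6 kb and 6.24 kb had no GRE match by this rule.

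NF-kB consensus matches were found within 100 bp of the summit at 5 of the 15 sites, against 4.83% of all windows, and in the 1-kb window at 6, against 15.9%. At 4 of these sites they were GGGACTTTCC at NFKBIA (84 bp from the summit of the site at 0.698 kb), GGGGCTCCCC at NFKBIA (69 bp, 13.8 kb), GGGGAATTCC at TNFAIP3 (61 bp, 6.24 kb) and GGGGCTTCCC, read on the minus strand, at ZFP36 (50 bp, 5.72 kb). The ZFP36 site 4.22 kb upstream held 4 matches, all more than 100 bp from its summit and 2 of them overlapping each other. The first NFKBIA site was the only one with both a GRE and an NF-kB match within 100 bp.

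The AP-1 motif (TGACTCA or TGAGTCA) was found in the 1-kb window of 5 of the 15 sites, against 37.1% of all windows, and within 100 bp at 2, against 19.4%. The ETS motif (CAGGAAAC, CAGGAAAT, CAGGAAGC, CAGGAAGT, CCGGAAAC, CCGGAAAT, CCGGAAGC or CCGGAAGT) was found in the 1-kb window of 6, against 37.9%, and within 100 bp at 3, against 13.8%. The 3 were the NFKBIA site at 13.8 kb, the NFKBIZ site and the TNFAIP3 site at 55.6 kb. All motifs were searched on both strands, and no match of one motif overlapped a match of another at the 15 sites. The NFKBIB site held none of the 4 motifs. Base composition differed too: the median GC content was 53.1% in the 15 windows and 46.7% in all, and its part in the motif counts was not tested. A match describes letters in a window and does not show that a factor was bound.

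**Figure D5:**
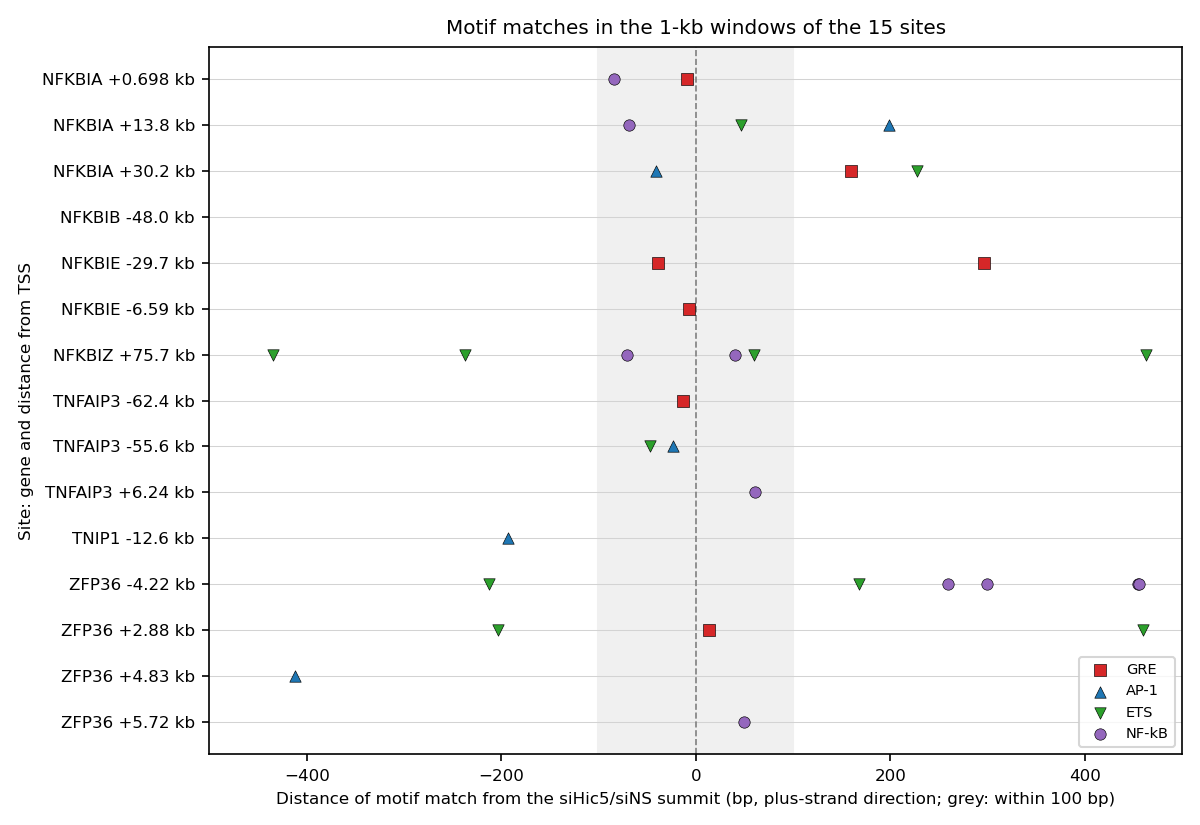
Positions of motif matches relative to the siHic5/siNS summit (horizontal axis, bp along the plus strand) at each of the 15 sites (rows), with the stretch within 100 bp of the summit in grey. NF-kB matches lie in the grey stretch at 5 sites and GRE matches at 5 sites, and NFKBIA at 0.698 kb has both.

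The siHic5/siNS peak at NFKBIA also covered its promoter. The 250 bases before the RefSeq start (GRCh38.p14) are printed on the gene's minus strand, with the NF-kB match, 81 bases before the start, in capitals.
NFKBIA promoter (chr14:35404750-35404999): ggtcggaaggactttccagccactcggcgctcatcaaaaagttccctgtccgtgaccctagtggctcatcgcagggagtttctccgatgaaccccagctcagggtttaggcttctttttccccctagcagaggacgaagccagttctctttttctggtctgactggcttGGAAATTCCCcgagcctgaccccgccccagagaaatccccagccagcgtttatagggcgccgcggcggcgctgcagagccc
RefSeq promoters at the canonical TSS were found for 8 of the 9 genes. In the 250 bases before the start, NF-kB matches were present in 5 of the 8, NFKBIA, NFKBIB, NFKBIZ, TNFAIP3 and TNIP1, against 5.21% of 35116 promoters. A GRE match was present in 1, IRAK3, against 2.8%. The NF-kB matches thus lie at promoters of genes with very different GR peaks. The 35116 promoters include alternative promoters of a gene, while only the canonical one was counted for the 8. GC content of the 8 ran from 58.4% to 80.8%, and its part in the matches was not tested. Only at NFKBIA did a peak reach these 250 bases. The siHic5/siNS peak covered all of them, the siBRM/siHic5 and siNS/siNS peaks covered a part, and the peaks of the remaining lists covered none.

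Other genes of the pathway were examined by the same 100-kb rule, from lists that were drawn up with earlier results of these data known. Of the 5 genes for the NF-kB subunits, 2 had a site (40.0%), REL with 2 sites and RELA with 1, all called in siHic5/siNS only. Of 18 further brakes on inflammatory signalling, 12 had a site (66.7%). ZFP36L1, a relative of ZFP36, had 6 sites and SOCS1, a suppressor of cytokine signalling, had 4, as did ZFP36L2, and all 3 had calls in all 6 lists. Their strongest siHic5/siNS sites, each called in all 6 lists, were 97.4 kb (ZFP36L1), 31.8 kb (SOCS1) and 95.2 kb (ZFP36L2) from the TSS. For ZFP36L1 and ZFP36L2 these lie near the edge of the 100-kb window. Of 25 upstream activators, 16 had a site (64.0%), with TRAF2, an adaptor of TNF receptors, at 7 sites and IL1R1, the interleukin-1 receptor, at 4, as were TNFRSF1A, BIRC3, BIRC2 and IRAK2. BIRC3 and BIRC2 had the same strongest siHic5/siNS peak (chr11:102306000-102306779) and the same counts in every list, so they are not independent. The 9 examined genes were at 7 of 9 (77.8%), and all protein-coding genes were at 44.2%. In the siNS/siNS list sites were found at 0 of the 5 subunit genes, 5 of the 18 brakes and 7 of the 25 activators. This was beside 3 of the 9 examined genes and 17% of all protein-coding genes.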

How the data were processed

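GR ChIP-seq peak lists of 6 siRNA combinations were used (12 ChIP and 6 input libraries). Per the labels and the paper, the authors mapped trimmed reads to GRCh38/hg38 (BWA), discarded duplicates and mitochondrial reads, pooled the replicates, and called peaks by MACS2 within the IDR framework. Tool versions and the IDR threshold are not given in the sources used here. The deposited lists give a signal value (fold enrichment ratio in the MACS2 format, average enrichment in CPM in the study's legend) and the −log10 of the p-value and q-value. Weak calls depend on the depth of each pool, which the lists do not hold.

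Sites were built by overlap of at least 1 bp and assigned to genes within 100 kb of the canonical TSS (GENCODE release 44). Ranks are by −log10 p-value within a list. Motifs were counted in windows of 1 kb and 200 bp. Shares carry 95% Wilson intervals. Each gene's nearest and strongest siHic5/siNS sites were described in full, and 2 genes with most sites were named per pathway list, ties going to the higher −log10 p-value. The genes and lists were chosen with earlier results of these data known. Overlaps and motif searches were tested on simulated data. The alternatives were other distances, TSS, overlaps, peak thresholds and motif settings. Computations used Python 3.11.15, NumPy 2.4.6, SciPy 1.17.1, pandas 2.3.3, pysam 0.24.0, Matplotlib 3.10.9, samtools 1.23.1 and bedtools 2.31.1.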

Additional observations from a re-analysis of the deposited data

Results flagged for a closer look

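At the TNFAIP3 site 55.6 kb upstream, called in all 6 lists, CHD9 depletion went with opposite directions of fold enrichment with and without Hic-5. The ratio of CHD9 depleted to control cells was 1.5704 with Hic-5 present and 0.595 with Hic-5 depleted. The siNS/siNS peak behind the first ratio ranked 2492 of 2582, and BRM depletion with Hic-5 present gave 1.34 there. Over all sites called once in both lists of a pair, the median CHD9 ratio was 0.888 with Hic-5 present and 0.568 with Hic-5 depleted. At the NFKBIA site 0.698 kb downstream, the ratio of BRM depleted to control cells was 0.7168 with Hic-5 present and 1.0029 with Hic-5 depleted, which is within 1% of no change and so no movement in the opposite direction. Each ratio at a site is of single pooled values from a pair of lists, and no difference between ratios was tested.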

How the results depend on the processing

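No paired analysis was possible because the lists were made from pooled replicates, and for the same reason no replicate could be left out. Of 130 values under 11 alternatives, 110 stayed within 1.5 times the reported one. Windows of 50 kb and 200 kb, any basic transcript TSS and overlap of at least 0.5 of the shorter peak moved no count past that limit, nor did ranking by fold enrichment (median rank in the upper 28.4% against 31.4%). With every list filtered at a −log10 q-value of 14.2, 12 sites remained, of which 4 were called in siNS/siNS and 4 lacked a siBRM/siHic5 peak (7 of 15 before, with 3 weak siHic5/siNS sites gone and 8 siBRM/siHic5 calls as before), and 2 siNS/siNS sites were kept in siCHD9/siNS. With a −log10 q-value of at least 20, the sites called were 4 in siNS/siNS, 3 in siCHD9/siHic5, 2 in siCHD9/siNS and 5 in siBRM/siHic5, and 2 siNS/siNS sites were kept in siCHD9/siNS. With the 1000 strongest peaks of each list there were 5 sites, 3 called in siNS/siNS, 4 in siHic5/siNS (at 3 genes), 3 in siCHD9/siHic5 and 3 in siBRM/siHic5. Of these 4, 2 counted as blocked, 1 lacked a siCHD9/siHic5 peak and 1 a siBRM/siHic5 peak, and 2 siNS/siNS sites were kept in siCHD9/siNS. The 2 counted as blocked were the TNFAIP3 sites 55.6 kb upstream and 6.24 kb downstream, which are shared in the full lists. Their siNS/siNS peaks ranked 2492 and 1046 and were removed by the filter. These filters leave fewer peaks in each list by construction. GRE matches were found at 1 of the 15 sites with no mismatch allowed, against 11.2% of all windows. With at most 2 mismatches they were found at 13, against 94.9%, so nearly every window had a match under that setting.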
